A study of Mus musculus with 18 samples.

Results

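The 6 libraries described here were made from intestinal epithelium of transplanted mice and carry the code SI in their column names, which is how they were chosen from the 18 libraries of the series. Of these 6, 3 came from BMT mice and 3 from BM mice. BMT mice were female BALB/cJ mice, 6 to 8 weeks old at transplantation, that were lethally irradiated and then given 10000000 bone marrow cells together with 1000000 T cells. BM mice had the same strain, sex, age, irradiation and marrow dose but no added T cells, so both groups carry the injury of irradiation and a marrow graft, and the added T cells are what differs. Epithelium was taken on day 7 in both groups. No source used here names the donor strain, so the degree of mismatch between donor and host cannot be stated. Bulk liver and a second intestinal epithelium, with the code LI, make up the other 12 libraries of the series.

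The titles of these 6 libraries call them large intestine, while their codes call them SI, and the genes were those of the small intestine. Fabp6, the bile acid binding protein of ileal enterocytes (GRCm38 chr11:43596049-43601540), was detected at 3568, 1179 and 4004 CPM in BMT libraries, against 10218, 7018 and 7203 CPM in BM libraries. Sis, the sucrase-isomaltase of the small intestinal brush border (chr3:72888557-72967863), was detected at 2418, 987 and 2676 CPM in BMT libraries, against 614, 1019 and 1168 CPM in BM libraries. Lyz1, the lysozyme of Paneth cells (chr10:117287797-117292868), was detected at 785, 1236 and 764 CPM in BMT libraries, against 7352, 6429 and 4705 CPM in BM libraries. In the code LI libraries the highest level was 11.9 CPM for Fabp6, 3.40 CPM for Sis and 5.12 CPM for Lyz1. The colonic homeobox genes Hoxa13, Hoxb13 and Hoxd13 had 0 counts in all 6 code SI libraries, and the colonic water channel Aqp8 reached at most 5.39 CPM. Other genes of the large intestine were read, among them Car1, described further below. The list of 14 large intestinal genes summed to 241, 319 and 489 CPM in BMT libraries and 974, 792 and 427 CPM in BM libraries. The libraries are therefore called code SI epithelium, and the markers place them with the distal small intestine rather than with the large intestine of their titles.

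The epithelium of the small intestine renews itself from Lgr5-positive stem cells at the base of each crypt, where Paneth cells provide antimicrobial peptides and growth factors for the stem cells. Daughter cells become absorptive enterocytes or the rarer goblet, enteroendocrine and tuft cells, and the enterocytes of the ileum recover bile acids for return to the liver. After transplantation, donor T cells that recognise the host can enter the gut wall, where they release interferon gamma and cytotoxic granules, and the crypt base is a known site of damage in graft-versus-host disease.

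Counts per library ran from 18845483 to 23335458, so that 3 counts correspond to 0.129 to 0.159 CPM (counts per 1000000 counts) on these unscaled totals. All CPM of genes and lists in the text are on library totals scaled by the TMM method. The first principal component of log-scaled expression held 72.6% of the variance and separated the 3 BMT from the 3 BM libraries. The second held 9.77% and set BMT 3 (score -43.7) apart from BMT 1 (26.1) and BMT 2 (14.0). BMT 2 was the only library of this set on sequencing lane L001. Replicates of a group differed by more than sampling noise, since chi-square divided by its degrees of freedom lay between 16.5 and 77.8. A mouse number in the library name is all that ties a library to an animal, so the p-values measure the spread between these libraries.

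Added T cells were associated with a broad change. Of 14621 genes tested, 1700 (11.6%) were higher in BMT and 1720 (11.8%) were lower in BMT at an adjusted p of 0.05 in the quasi-likelihood test of edgeR, adjusted after Benjamini and Hochberg, which gave every adjusted p below unless another model is named. The median log2 fold change (BMT over BM) of all tested genes was 0.02. Past 2-fold there were 994 higher and 1040 lower genes. Past 4-fold there were 544 higher and 307 lower genes, and the higher ones include genes near 0 counts in the BM libraries, which could only rise. The groups did not overlap for 2777 genes (19.0%) with all BMT libraries above all BM libraries and for 3054 genes (20.9%) with all below. Without BM 2 the calls fell to 1030 higher and 1056 lower genes, and without BM 1 the lower calls fell to 1121. A gene list below is described by how many of its tested members passed this test, to be read against the 11.6% and 11.8% of all genes.

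Genes of T cells and of their effector functions rose most among the gene lists, and nearly all of those tested rose. Of the T cell list (receptor chains, coreceptors and signalling proteins), 20 of 21 tested members rose, with a median log2 fold change of 5.41, and the other tested member, Bcl11b, was not called. All 33 tested members of the effector T and NK cell list rose, with a median of 5.27. The filter keeps a gene that is expressed in the BMT libraries alone. Members at or near 0 counts in the BM libraries, such as Ifng and Icos, were tested only for that reason and could only rise. The counts of both lists are therefore a description. In the T cell list 1 gene, Cd28, had 0 counts in the BM libraries. With Cd28 set to its lower bound, against a floor of 3 counts over the group, the median of that list was 5.26. The summed level of the T cell list was 280.1, 407 and 377 CPM in the BMT libraries and 48.9, 43.9 and 44.9 CPM in the BM libraries, and most of the sum in the BM libraries came from Bcl11b. These are bulk samples, so more cells of a type and more RNA per cell of that type cannot be told apart.

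Thy1, a surface glycoprotein of T cells (chr9:44043384-44048579), stood at 37.4, 55.98 and 51.005 CPM in BMT libraries, against 0.372, 0.175 and 0.248 CPM in BM libraries. The groups were far apart, with BMT 1 the lowest BMT library (log2 fold change 7.48, SE 0.31, adjusted p = 7.9e-07). Cd3e, a signalling chain of the T cell receptor complex, was counted at 11.4, 21.5 and 19.3 CPM in BMT libraries, against 1.30, 0.611 and 0.396 CPM in BM libraries. The groups did not overlap, and BM 1 was the highest of its group (log2 fold change 4.49, SE 0.40, adjusted p = 2.7e-05). Cd4, the coreceptor of helper T cells, reached 9.23, 15.5 and 13.4 CPM in BMT libraries, against 0.232, 0.131 and 0.0495 CPM in BM libraries (log2 fold change 6.45, SE 0.42, adjusted p = 6.0e-06). Cd8b1, the coreceptor chain of cytotoxic T cells, had 19.6, 25.6 and 23.1 CPM in BMT libraries, against 0, 0 and 0.149 CPM in BM libraries, and the ratio of its counts was 495 (95% interval 169 to 2403), with 3 counts in the BM libraries together. Transcripts of both coreceptors were thus read in all 3 BMT libraries and were at or near 0 in the BM libraries. Bcl11b, a T lineage transcription factor also read in the BM libraries, was at 24.3, 30.6 and 36.1 CPM in BMT libraries, against 30.9, 38.3 and 37.03 CPM in BM libraries, with overlapping groups (log2 fold change -0.22, SE 0.18, adjusted p = 0.42).

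Genes of the granules with which T cells kill their targets rose in all 3 BMT libraries. Gzma, granzyme A, stood at 104, 157 and 244 CPM in BMT libraries, against 15.4, 1.44 and 6.09 CPM in BM libraries. BMT 3 was the highest library and BM 2 the lowest, and the groups were apart (log2 fold change 4.46, SE 0.64, adjusted p = 0.00058). Gzmb, granzyme B, followed the same order of libraries with 82.7, 112 and 201 CPM in BMT libraries, against 9.43, 1.96 and 4.46 CPM in BM libraries (log2 fold change 4.64, SE 0.51, adjusted p = 9.7e-05). Prf1, the pore-forming perforin, was counted at 7.91, 12.4 and 11.5 CPM in BMT libraries, against 0.139, 0 and 0 CPM in BM libraries, a ratio of 232 (95% interval 79.01 to 1127). Fasl, the ligand that triggers death through Fas, was at 5.48, 6.03 and 7.48 CPM in BMT libraries, against 0.465, 0.0437 and 0.0990 CPM in BM libraries (log2 fold change 4.93, SE 0.52, adjusted p = 7.7e-05). In these 4 genes the groups did not overlap, and BM 1 was the highest BM library.

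Genes of T cell activation and restraint rose together with them. Pdcd1, the inhibitory receptor PD-1, had 11.7, 16.2 and 13.002 CPM in BMT libraries, against 0, 0 and 0.0990 CPM in BM libraries, a ratio of 444 (95% interval 123 to 3675). Lag3, another inhibitory receptor, was at 12.7, 16.7 and 12.4 CPM in BMT libraries, against 0.511, 0.480 and 1.04 CPM in BM libraries (log2 fold change 4.36, SE 0.33, adjusted p = 1.1e-05). Tbx21, the transcription factor of type 1 T cells, was at 4.38, 6.58 and 6.71 CPM in BMT libraries, against 0.0929, 0 and 0.0495 CPM in BM libraries. Its counts gave a ratio of 129 (95% interval 43.7 to 627), with almost no reads in the BM group. Icos, a costimulatory receptor, had 3.06, 2.14 and 1.32 CPM in the BMT libraries and 0 counts in all 3 BM libraries, at least 45.9-fold higher against a floor of 3 counts over the group. The lists also held receptors that direct T cells to the gut. Itgb7, a chain of the gut-homing integrin, was at 16.3, 30.6 and 24.9 CPM in BMT libraries, against 0.976, 0.699 and 1.09 CPM in BM libraries (log2 fold change 4.70, SE 0.31, adjusted p = 6.0e-06), and Ccr9, the receptor of the small intestinal chemokine Ccl25, was at 2.32, 3.63 and 4.88 CPM in BMT libraries, against 0.883, 0.349 and 0.495 CPM in BM libraries (log2 fold change 2.64, SE 0.42, adjusted p = 0.0011). Itgae, which binds E-cadherin on epithelium, was at 4.11, 6.15 and 13.6 CPM in BMT libraries, against 2.65, 1.18 and 3.32 CPM in BM libraries (log2 fold change 1.75, SE 0.47, adjusted p = 0.020). Its call was lost without BM 1 (adjusted p = 0.059), BM 2 (0.065) or BMT 3 (0.062).

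**Figure D1:**
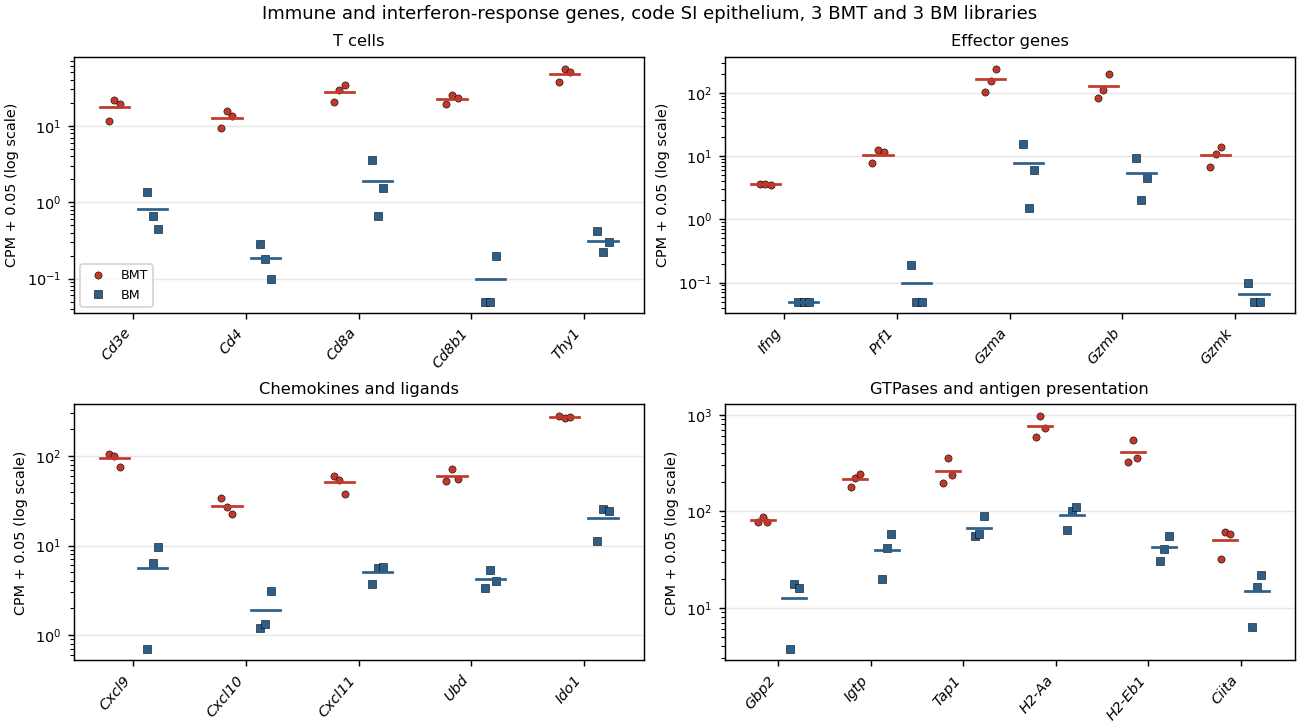
Level of T cell, interferon and antigen presentation genes in each library (CPM + 0.05 on a log axis), with BMT libraries left of BM libraries and a line at the mean of each group. In every panel the BMT libraries lie above the BM libraries, and Ifng has 0 counts in all 3 BM libraries.

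Markers of other blood and stromal cells gave fewer calls, and in mixed directions. Of the macrophage and monocyte list 5 of 13 tested members rose and 1 fell, the list summed to 856, 1151 and 1211 CPM in the BMT libraries and 874, 770.4 and 781 CPM in the BM libraries, mostly from Plac8, which epithelium also expresses. Of its defining markers Cd163 had 0 counts in all 6 libraries and Adgre1 was at 0.158, 0 and 0.228 CPM in the BMT libraries and 0, 0.131 and 0.198 CPM in the BM libraries. Members that rose included Itgax, Ly6c2, Cx3cr1 and Mrc1, and their calls were kept when any 1 library was left out. Cx3cr1, a chemokine receptor of monocytes, macrophages and cytotoxic T cells, was at 2.37, 3.08 and 2.37 CPM in BMT libraries, against 0.186, 0 and 0.149 CPM in BM libraries (log2 fold change 4.51, SE 0.56, adjusted p = 0.00023). Mrc1, the mannose receptor of macrophages, was at 5.54, 2.86 and 3.01 CPM in BMT libraries, against 1.49, 0.961 and 0.842 CPM in BM libraries (log2 fold change 1.78, SE 0.37, adjusted p = 0.0053). Pax5, a transcription factor that defines B cells, had 0 counts in all 6 libraries, and the B and plasma cell list summed to 4.75, 5.98 and 5.84 CPM in the BMT libraries and 11.2, 3.54 and 5.59 CPM in the BM libraries. Of its 4 tested members 1 rose and 2 fell. Ighm, the heavy chain of immunoglobulin M, was at 3.32, 4.19 and 4.43 CPM in BMT libraries, against 1.58, 0.262 and 0.347 CPM in BM libraries (log2 fold change 2.44, SE 0.53, adjusted p = 0.0070). The immunoglobulin genes Igha and Igkc of plasma cells fell, with Igha at 0.211, 0.128 and 0.319 CPM in BMT and 4.23, 0.917 and 2.67 CPM in BM (log2 fold change -3.54, SE 0.61, adjusted p = 0.0019) and Igkc at 0.264, 0.0855 and 0.0912 CPM in BMT and 3.07, 0.742 and 1.29 CPM in BM (log2 fold change -3.53, SE 0.67, adjusted p = 0.0033). Haemoglobin transcripts of red cells were also lower, and Hbb-bs was at 0.211, 0.556 and 2.14 CPM in BMT and 19.4, 2.71 and 8.51 CPM in BM (log2 fold change -3.37, SE 0.76, adjusted p = 0.0090), a call lost without BMT 2 (adjusted p = 0.051). Vim, a filament protein of mesenchymal cells and leukocytes, rose with 31.1, 41.9 and 43.7 CPM in BMT libraries, against 13.6, 6.77 and 7.57 CPM in BM libraries (log2 fold change 2.06, SE 0.27, adjusted p = 0.00030), while the collagen gene Col1a2 was at 0.105, 0.299 and 0.776 CPM in BMT and 1.25, 0.786 and 0.743 CPM in BM and was not called (log2 fold change -1.20, adjusted p = 0.15). Of the endothelial list 2 of 5 tested members rose and 1 fell. When any 1 library was left out, 1 of the rises was always kept and the fall was not. The list summed to 22.2, 15.9 and 12.96 CPM in the BMT libraries and 12.1, 11.8 and 10.7 CPM in the BM libraries. Its marker Emcn was at 0 throughout. The epithelial list had 2 higher and 1 lower of 13 tested genes, with a median log2 fold change of 0.10, and its surface marker Epcam was at 1664, 1764 and 2105 CPM in BMT libraries, against 1923, 1571 and 1601 CPM in BM libraries (log2 fold change 0.12, SE 0.18, adjusted p = 0.67).

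Genes of the interferon gamma pathway rose at the level of the ligand, of the transcription factor Irf1 and of target genes, while the receptors were not called. Ifng, the gene of interferon gamma (chr10:118441046-118445892), had 3.53, 3.59 and 3.51 CPM in the BMT libraries and 0 counts in all 3 BM libraries, at least 76.4-fold higher against a floor of 3 counts over the group. The receptor genes were read at similar levels in both groups. Ifngr1 was at 194, 199 and 188 CPM in BMT libraries, against 203, 172 and 146 CPM in BM libraries (log2 fold change 0.16, SE 0.16, adjusted p = 0.50), and Ifngr2 was at 181, 209 and 229 CPM in BMT libraries, against 219.8, 189.7 and 153 CPM in BM libraries (log2 fold change 0.14, SE 0.17, adjusted p = 0.60). The signalling list had 11 of 22 tested members called higher and 1 called lower, with a median log2 fold change of 0.55. The higher count became 7 without BM 1, 6 without BM 2 and 5 in a fit of all 18 libraries.

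Irf1, a transcription factor that interferon gamma induces, was at 364, 404 and 429 CPM in BMT libraries, against 197, 239 and 261 CPM in BM libraries, with the groups apart (log2 fold change 0.78, SE 0.16, adjusted p = 0.0050). Socs1, a feedback inhibitor of interferon signalling, reached 6.17, 9.23 and 10.5 CPM in BMT libraries, against 2.04, 2.14 and 2.28 CPM in BM libraries (log2 fold change 2.00, SE 0.27, adjusted p = 0.00040). Calls for Irf1 and Socs1 were lost in the fit of all 18 libraries, where the adjusted p was 0.059 for Irf1 and 0.073 for Socs1. Socs3, the feedback inhibitor induced through Stat3, moved the other way. It fell to 22.99, 27.2 and 33.8 CPM in the BMT libraries, against 105, 79.8 and 97.8 CPM in the BM libraries (log2 fold change -1.75, SE 0.18, adjusted p = 7.8e-05), while Stat3 itself was not called (log2 fold change 0.19, adjusted p = 0.40).

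Guanylate-binding proteins and immunity-related GTPases, which attack pathogen vacuoles inside cells and are classical targets of interferon gamma, rose without exception among those tested. All 10 tested guanylate-binding protein genes passed the test, with a median log2 fold change of 3.02, and so did all 10 tested immunity-related GTPase genes, with a median of 2.47. Gbp2 was at 77.8, 87.6 and 78.2 CPM in BMT libraries, against 3.72, 17.7 and 16.04 CPM in BM libraries (log2 fold change 2.699, SE 0.42, adjusted p = 0.0011). Gbp5 was at 17.4, 10.98 and 10.7 CPM in BMT libraries, against 0.279, 0.786 and 0.941 CPM in BM libraries (log2 fold change 4.27, SE 0.39, adjusted p = 3.1e-05). In both genes the lowest BMT library was above the highest BM library, and BM 1 was the lowest library. Igtp stood at 177, 222 and 246 CPM in BMT libraries, against 19.7, 41.3 and 58.3 CPM in BM libraries (log2 fold change 2.43, SE 0.32, adjusted p = 0.00035), and Irgm1 stood at 209, 227 and 239 CPM in BMT libraries, against 63.4, 90.3 and 104 CPM in BM libraries (log2 fold change 1.39, SE 0.19, adjusted p = 0.00040). Several of these genes have near-identical copies, so single values are less certain than the count over the family.

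Promoter sequences of induced genes are printed here because short interferon motifs could be read directly from them. The sequences are from RefSeq (GRCm38.p6), each line gives 60 bases from the region upstream of the start of its gene, is written 5′ to 3′ on the strand of the gene, and has the matches in capitals. Matches to the core of the interferon-stimulated response element, on either strand, are in Gbp7 (chr3:142530258-142530317, plus strand), Igtp (chr11:58199496-58199555, plus strand), Ifit1 (chr19:34640779-34640838, plus strand), Rsad2 (chr12:26456538-26456597, minus strand) and Cxcl10 (chr5:92349068-92349127, minus strand). The first match of the Igtp window is the core of the gamma-activated sequence (TTCNNNGAA), a motif of promoters that respond to interferon gamma, and the Ifit1 window has 2 response element matches. No printed match overlaps another.
Gbp7: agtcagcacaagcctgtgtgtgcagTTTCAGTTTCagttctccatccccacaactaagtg
Igtp: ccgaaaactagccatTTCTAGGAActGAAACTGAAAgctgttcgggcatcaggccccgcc
Ifit1: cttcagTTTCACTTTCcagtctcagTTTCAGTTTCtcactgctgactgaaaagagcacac
Rsad2: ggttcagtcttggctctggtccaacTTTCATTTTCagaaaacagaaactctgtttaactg
Cxcl10: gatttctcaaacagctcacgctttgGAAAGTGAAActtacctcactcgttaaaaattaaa
Over the windows of 27025 genes, from 250 bases before to 50 bases after the start, and with both strands searched, 3.99% held the response element core and 9.55% held the gamma-activated core. Of the 10 guanylate-binding protein genes that rose, 5 had a window in the table and all 5 held the response element core. Of the 10 immunity-related GTPase genes that rose, 6 had a window, 5 with the response element core and 4 with the gamma-activated core. The antiviral genes described next had windows for 17 of 20 and the response element core in 11. A match describes the letters of the window and is not evidence of binding.

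Antiviral effectors, which are mainly induced by type I and type III interferons but also by interferon gamma, rose in most cases. Of 30 tested genes, 20 were higher in BMT and 0 were lower, with a median log2 fold change of 1.17. Usp18, which removes the ubiquitin-like modifier ISG15, was at 47.8, 88.9 and 85.5 CPM in BMT libraries, against 10.4, 3.01 and 7.57 CPM in BM libraries (log2 fold change 3.41, SE 0.39, adjusted p = 0.00014). Zbp1, a sensor of nucleic acids that can start necroptosis, was at 88.1, 168 and 158 CPM in BMT libraries, against 20.3, 19.3 and 35.6 CPM in BM libraries (log2 fold change 2.46, SE 0.29, adjusted p = 0.00017). Ifit2 was at 17.03, 38.9 and 39.1 CPM in BMT libraries, against 5.81, 4.89 and 5.30 CPM in BM libraries (log2 fold change 2.57, SE 0.30, adjusted p = 0.00015), and in each of these 3 genes BMT 1 was the lowest BMT library and the groups were apart. Rsad2, whose promoter is printed above, was at 20.9, 20.5 and 28.8 CPM in BMT libraries, against 7.90, 1.66 and 5.64 CPM in BM libraries (log2 fold change 2.21, SE 0.42, adjusted p = 0.0033). Ifit1, whose promoter is also printed above, was called higher in BMT. Its call was lost without BM 2 (adjusted p = 0.062) or BMT 3 (0.054) and in the fit of all 18 libraries (0.051). The other 10 tested genes were not called.

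The chemokines that bind Cxcr3 on activated T cells rose in all 3 BMT libraries. Cxcl9 (chr5:92321347-92328079) was at 106, 101 and 76.1 CPM in BMT libraries, against 0.651, 6.38 and 9.65 CPM in BM libraries. The groups were far apart, and BM 1 was the lowest library (log2 fold change 4.08, SE 0.60, adjusted p = 0.00068). Cxcl10 was at 33.7, 27.1 and 22.4 CPM in BMT libraries, against 1.16, 1.27 and 3.07 CPM in BM libraries (log2 fold change 3.93, SE 0.35, adjusted p = 2.6e-05), and Cxcl11 was at 59.9, 54.5 and 37.9 CPM in BMT libraries, against 3.67, 5.59 and 5.74 CPM in BM libraries (log2 fold change 3.34, SE 0.24, adjusted p = 9.8e-06). The T cell chemokines Ccl3, Ccl4 and Ccl5 made up the other 3 of 6 higher members among 15 tested. Another 5 fell. Among these, Ccl28, a mucosal chemokine for plasma cells and T cells, was at 19.04, 12.3 and 14.2 CPM in BMT libraries, against 50.8, 53.3 and 34.8 CPM in BM libraries (log2 fold change -1.61, SE 0.22, adjusted p = 0.00046), and Ccl6 was at 30.1, 91.7 and 142 CPM in BMT libraries, against 406, 397 and 325 CPM in BM libraries (log2 fold change -2.10, SE 0.41, adjusted p = 0.0041). Ccl20, which attracts cells to lymphoid follicles, was at 0.369, 0.256 and 0.182 CPM in BMT libraries, against 5.25, 1.75 and 0.792 CPM in BM libraries (log2 fold change -3.26, SE 0.69, adjusted p = 0.0060). Ccl25, the ligand of Ccr9, was at 179, 224 and 345 CPM in BMT libraries, against 436, 387 and 358 CPM in BM libraries, and it missed the threshold (log2 fold change -0.66, SE 0.22, adjusted p = 0.054) but passed it with DESeq2 (adjusted p = 0.032), limma-voom (0.038) and without BMT 3 (0.0029).

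Genes of antigen presentation by both classes of major histocompatibility molecules rose, and the median rise was larger for class II. Of the class II list 7 of 8 tested genes rose, with a median log2 fold change of 3.04. Of the class I list 21 of 25 rose, with a median of 1.08. H2-Aa, the alpha chain of a class II molecule (chr17:34282744-34287827), was at 585, 969.9 and 733 CPM in BMT libraries, against 63.4, 99.6 and 112 CPM in BM libraries. All BMT libraries were far above all BM libraries, and BM 1 was the lowest (log2 fold change 3.06, SE 0.26, adjusted p = 1.8e-05). Cd74, the invariant chain that guides class II molecules to endosomes, was at 1636, 2558 and 2009 CPM in BMT libraries, against 227, 264 and 411 CPM in BM libraries (log2 fold change 2.78, SE 0.26, adjusted p = 3.6e-05). Ciita, the coactivator that switches class II genes on, was at 31.7, 60.3 and 58.8 CPM in BMT libraries, against 6.32, 16.4 and 22.1 CPM in BM libraries (log2 fold change 1.75, SE 0.39, adjusted p = 0.0077), a call lost in the fit of all 18 libraries (adjusted p = 0.098). B cells, macrophages and dendritic cells also express class II genes. As given above, 5 of 13 tested macrophage and monocyte genes rose and 1 fell. Of 4 tested B and plasma cell genes 1 rose and 2 fell. Itgax, a marker of dendritic cells and some macrophages, was at 8.70, 13.97 and 10.5 CPM in BMT libraries, against 1.07, 0.175 and 0.990 CPM in BM libraries (log2 fold change 3.90, SE 0.46, adjusted p = 0.00016). The part of these cells in the class II rise was not tested.

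The windows of 2 class II genes are shown because the Y box, a motif of class II promoters that reads GATTGG or CCAATC, was found in each class II gene with a window, 5 of 5, against 18.2% of all windows. H2-Aa lies on the minus strand (chr17:34287840-34287899) and H2-Eb1 on the plus strand (chr17:34305805-34305864), and capitals mark the Y box cores.
H2-Aa: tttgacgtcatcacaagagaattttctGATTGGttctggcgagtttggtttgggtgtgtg
H2-Eb1: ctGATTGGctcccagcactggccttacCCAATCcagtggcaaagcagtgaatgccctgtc
None of the 5 class II windows held the response element core. Among class I genes that rose, 10 of 17 windows held the Y box core and 4 held the response element core. The windows of Tap1 and Psmb9, which both hold the Y box core, share 275 of their 300 bases, so that stretch is counted for both genes.

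In the class I pathway the coactivator Nlrc5, which plays for class I genes the part of Ciita for class II, was at 28.6, 44.95 and 42.1 CPM in BMT libraries, against 3.67, 7.86 and 13.5 CPM in BM libraries (log2 fold change 2.21, SE 0.37, adjusted p = 0.0017). B2m, the light chain of class I molecules, was at 2069, 2252 and 2840.5 CPM in BMT libraries, against 1041, 989 and 1052 CPM in BM libraries (log2 fold change 1.22, SE 0.18, adjusted p = 0.00068). Tap1, a peptide pump into the endoplasmic reticulum, was at 198, 353 and 239 CPM in BMT libraries, against 55.4, 58.3 and 89.5 CPM in BM libraries (log2 fold change 1.96, SE 0.25, adjusted p = 0.00027), and Psmb8, an immunoproteasome subunit, was at 203, 279 and 233 CPM in BMT libraries, against 60.6, 69.6 and 95.8 CPM in BM libraries (log2 fold change 1.66, SE 0.20, adjusted p = 0.00017). H2-Q7 was at 38.3, 59.4 and 41.4 CPM in BMT libraries, against 2.60, 2.40 and 3.96 CPM in BM libraries (log2 fold change 3.96, SE 0.26, adjusted p = 6.3e-06). In all of these genes the BMT libraries lay above the BM libraries, although H2 genes differ between BALB/c mice and the C57BL/6J reference and share sequence among themselves.

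Genes of ligands and enzymes that act on T cells rose in part. Of the immune ligand list 9 of 19 tested genes rose and 1 fell, with a median log2 fold change of 0.57. Cd274, the ligand PD-L1 of PD-1, was at 13.7, 11.5 and 20.7 CPM in BMT libraries, against 1.39, 2.45 and 3.71 CPM in BM libraries (log2 fold change 2.61, SE 0.35, adjusted p = 0.00041). Il18bp, a decoy for interleukin 18, was at 36.2, 66.2 and 63.9 CPM in BMT libraries, against 6.46, 7.64 and 11.4 CPM in BM libraries (log2 fold change 2.705, SE 0.28, adjusted p = 6.8e-05), and Icam1, an adhesion ligand for leukocytes, was at 23.3, 26.8 and 17.97 CPM in BMT libraries, against 1.95, 3.97 and 4.21 CPM in BM libraries (log2 fold change 2.75, SE 0.29, adjusted p = 7.8e-05). Ido1, which degrades tryptophan and thereby limits T cells, was at 281, 264 and 272 CPM in BMT libraries, against 11.3, 25.6 and 24.1 CPM in BM libraries. The 3 BMT libraries were close to each other, and all were far above the BM libraries (log2 fold change 3.74, SE 0.28, adjusted p = 1.0e-05). Wars, the tryptophan tRNA ligase that interferon gamma induces, was at 358, 448 and 334 CPM in BMT libraries, against 205, 254 and 244 CPM in BM libraries (log2 fold change 0.70, SE 0.17, adjusted p = 0.012), and its call was lost without BM 1 (adjusted p = 0.051) and in the fit of all 18 libraries (adjusted p = 0.22).

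Secretory lineages of the epithelium changed in different directions: Paneth, goblet and enteroendocrine genes fell, and tuft cell genes rose. Paneth cell genes showed 14 of 18 tested members lower in BMT and none higher, with a median log2 fold change of -1.87, and the list summed to 4009, 7689 and 8983 CPM in the BMT libraries against 31059.9, 26284 and 20081 CPM in the BM libraries. Enteroendocrine genes showed 23 of 26 lower, with a median of -1.91. Goblet cell genes showed 12 of 21 lower, with a median of -0.54. Of 14 tested tuft cell genes, 9 were higher and none lower, with a median of 2.51. The T cell list rose in the same libraries, and the part of cell composition in these changes was not tested.

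Lyz1 fell to the CPM given in the opening, and the groups were far apart (log2 fold change -2.73, SE 0.26, adjusted p = 3.8e-05). Alpha-defensins, the antimicrobial peptides of Paneth granules, were lower for each tested member of the list. Defa29 had the largest fall, to 5.54, 13.5 and 14.2 CPM in the BMT libraries, against 212, 243 and 256 CPM in the BM libraries (log2 fold change -4.41, SE 0.31, adjusted p = 8.2e-06). Defa17 had the smallest fall of the defensins, to 40.9, 83.4 and 87.4 CPM in the BMT libraries, against 302, 211 and 177 CPM in the BM libraries (log2 fold change -1.70, SE 0.28, adjusted p = 0.0016). Pla2g2a, a secreted phospholipase with antibacterial activity, was at 1132, 1996 and 1731 CPM in BMT libraries, against 6134, 5630.5 and 4533 CPM in BM libraries (log2 fold change -1.75, SE 0.24, adjusted p = 0.00043). Defensin genes are near copies of one another, and counts may have been shared or lost among them. Sox9, which Paneth cells and crypt progenitors require, was at 19.6, 22.3 and 22.3 CPM in BMT libraries, against 45.5, 46.98 and 57.5 CPM in BM libraries (log2 fold change -1.22, SE 0.16, adjusted p = 0.00039). Calls for the 14 lower genes were kept when any 1 library was left out. The 4 genes not called were Itln1, Mptx1, Mptx2 and Ang4. Ang4, an angiogenin with antibacterial activity, was at 224, 359.8 and 592 CPM in BMT libraries, against 509.7, 306 and 218 CPM in BM libraries, and its groups overlapped (log2 fold change 0.19, adjusted p = 0.74). Its sign turned to -0.05 without BM 3 and -0.23 without BMT 3.

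Secreted products of goblet cells were among the genes that fell. Muc2, the gel-forming mucin of the mucus layer, was at 92.8, 174 and 238 CPM in BMT libraries, against 703, 384 and 401 CPM in BM libraries. BMT 1 was the lowest and BM 1 the highest, and the groups were apart (log2 fold change -1.56, SE 0.33, adjusted p = 0.0059). Zg16, a lectin that binds Gram-positive bacteria in mucus, was at 579.5, 744 and 1134 CPM in BMT libraries, against 3813, 2596 and 2849 CPM in BM libraries (log2 fold change -1.91, SE 0.26, adjusted p = 0.00044). Tff3, a trefoil peptide of mucosal repair, was at 356, 564 and 792 CPM in BMT libraries, against 1953, 1279 and 1349 CPM in BM libraries (log2 fold change -1.42, SE 0.28, adjusted p = 0.0041), and Fcgbp, a mucus component, was at 1258, 1655 and 2044 CPM in BMT libraries, against 3501, 3021 and 4072 CPM in BM libraries (log2 fold change -1.10, SE 0.22, adjusted p = 0.0042). Spdef, a transcription factor of goblet cell maturation, was not called (log2 fold change -0.34, SE 0.16, adjusted p = 0.17). Atoh1, which commits cells to the secretory lineage, was at 35.1, 34.3 and 38.3 CPM in BMT and 56.4, 45.8 and 49.5 CPM in BM (log2 fold change -0.49, SE 0.15, adjusted p = 0.038), and its call was lost without BM 1, BM 2, BM 3, BMT 1 or BMT 2, where the adjusted p ran from 0.065 to 0.12, and in the fit of all 18 libraries (adjusted p = 0.061). The number of lower goblet genes was 7 without BM 2, 7 without BMT 1 and 7 without BMT 2.

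Hormones and granule proteins of enteroendocrine cells fell across cell subtypes. Chga, a granule protein of most of these cells, was at 11.9, 28.7 and 33.3 CPM in BMT libraries, against 82.3, 70.04 and 85.5 CPM in BM libraries (log2 fold change -1.68, SE 0.30, adjusted p = 0.0026). Gip, the incretin of K cells, fell to 0.316, 0.897 and 1.41 CPM in the BMT libraries, against 16.6, 11.3 and 14.7 CPM in the BM libraries (log2 fold change -3.99, SE 0.40, adjusted p = 5.3e-05). Gcg, which encodes GLP-1 in L cells, was at 19.6, 54.8 and 52.6 CPM in BMT libraries, against 264, 211 and 167 CPM in BM libraries (log2 fold change -2.33, SE 0.33, adjusted p = 0.00060). Each of these 3 genes was lower in all BMT libraries than in any BM library, and BMT 1 was the lowest. Nts, neurotensin, was at 6.38, 19.7 and 19.9 CPM in BMT libraries, against 97.5, 64.97 and 58.2 CPM in BM libraries (log2 fold change -2.26, SE 0.37, adjusted p = 0.0013). Sst, somatostatin, was at 1.58, 9.14 and 7.94 CPM in BMT libraries, against 42.4, 29.8 and 27.8 CPM in BM libraries (log2 fold change -2.41, SE 0.46, adjusted p = 0.0034). Tac1, the precursor of substance P in enterochromaffin cells, was at 0.686, 3.03 and 3.60 CPM in BMT libraries, against 18.4, 14.5 and 14.3 CPM in BM libraries (log2 fold change -2.67, SE 0.43, adjusted p = 0.0012). In these 3 genes the groups were apart as well. Neurod1, a transcription factor of the lineage, fell with 0.897, 0.684 and 0.730 CPM in BMT and 3.16, 2.05 and 2.23 CPM in BM (log2 fold change -1.69, SE 0.33, adjusted p = 0.0039). Neurog3, which starts the lineage, was at 2.74, 1.97 and 1.41 CPM in BMT and 2.83, 2.79 and 3.22 CPM in BM and was not called (log2 fold change -0.54, adjusted p = 0.23).

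Tuft cells are rare chemosensory cells that respond to parasites and metabolites. Dclk1, a kinase used as their marker, was at 3.16, 4.49 and 11.8 CPM in BMT libraries, against 1.67, 0.393 and 0.545 CPM in BM libraries. BMT 3 was the highest library, and the lowest BMT library was above the highest BM library (log2 fold change 2.90, SE 0.59, adjusted p = 0.0052). Trpm5, the cation channel of their taste-like signalling, was at 4.38, 6.54 and 9.17 CPM in BMT libraries, against 0.976, 0.349 and 0.446 CPM in BM libraries (log2 fold change 3.50, SE 0.42, adjusted p = 0.00020). Avil, an actin regulator of these cells, was at 4.59, 6.67 and 11.2 CPM in BMT libraries, against 2.65, 0.568 and 1.49 CPM in BM libraries (log2 fold change 2.26, SE 0.48, adjusted p = 0.0066). Pou2f3, the transcription factor that specifies the lineage, was at 0.369, 0.897 and 2.05 CPM in BMT and 0.744, 0.568 and 0.347 CPM in BM and was not called (log2 fold change 1.00, adjusted p = 0.23). Alox5 and Siglecf, which also rose, are expressed by leukocytes too, and Alox5 was at 0.897, 1.15 and 4.33 CPM in BMT libraries, against 0.325, 0.131 and 0.297 CPM in BM libraries (log2 fold change 3.07, SE 0.67, adjusted p = 0.0074). The part of leukocytes in the rise of the tuft list was not tested.

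**Figure D2:**
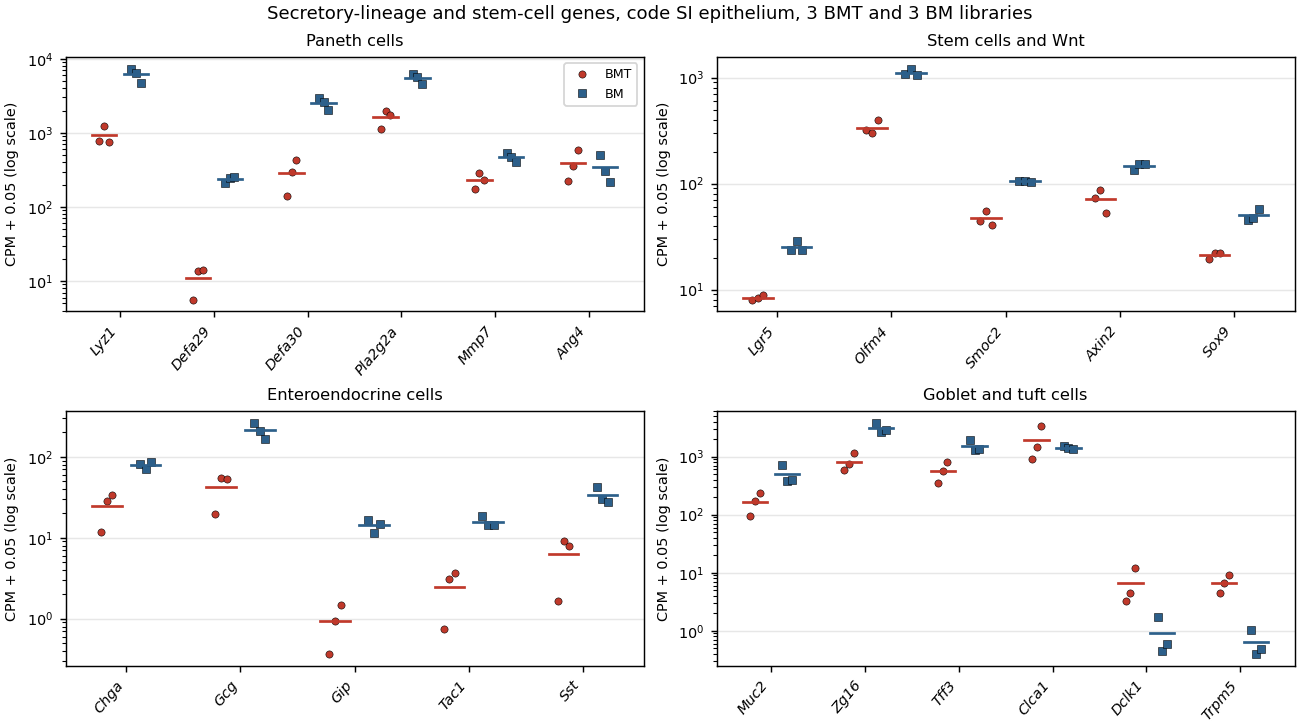
Level of Paneth, goblet, enteroendocrine, tuft and stem cell genes in each library (CPM + 0.05 on a log axis), with BMT libraries left of BM libraries and a line at the mean of each group. Lyz1, Defa29, Gip and Lgr5 lie lower in every BMT library than in any BM library, and Dclk1 and Trpm5 lie higher.

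Stem cell genes and targets of Wnt signalling fell, while no gene of the replication and mitosis list did. Of the stem cell and Wnt list 14 of 22 tested genes fell and none rose, with a median log2 fold change of -0.79. Lgr5, the receptor that marks crypt base stem cells (chr10:115450311-115587780), was at 7.96, 8.25 and 8.90 CPM in BMT libraries, against 23.6, 28.6 and 23.7 CPM in BM libraries. The 3 values of each group were close to each other and far from the other group (log2 fold change -1.59, SE 0.18, adjusted p = 0.00010). Olfm4, a secreted protein of stem cells, was at 319, 298 and 398 CPM in BMT libraries, against 1079, 1216 and 1052 CPM in BM libraries (log2 fold change -1.72, SE 0.17, adjusted p = 5.4e-05), and Smoc2 was at 44.7, 55.5 and 40.7 CPM in BMT libraries, against 106, 106 and 103 CPM in BM libraries (log2 fold change -1.16, SE 0.16, adjusted p = 0.00040). In both genes the groups were apart. Axin2, a direct target of Wnt signalling, was at 72.5, 87.1 and 53.2 CPM in BMT libraries, against 136, 153 and 152 CPM in BM libraries (log2 fold change -1.05, SE 0.18, adjusted p = 0.0021). Rnf43, a Wnt target that feeds back on Wnt receptors, was at 33.6, 48.7 and 30.6 CPM in BMT libraries, against 73.6, 82.7 and 88.1 CPM in BM libraries (log2 fold change -1.11, SE 0.19, adjusted p = 0.0019). Ascl2, a transcription factor of stem cells, was at 8.75, 10.1 and 6.39 CPM in BMT and 13.3, 8.51 and 13.8 CPM in BM and was not called (log2 fold change -0.50, adjusted p = 0.18), and neither was Myc (log2 fold change -0.51, adjusted p = 0.10).

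Of 34 tested genes of replication and mitosis, 13 rose and none fell, with a median log2 fold change of 0.57. That count depended on single libraries: it was 7 without BM 1, 2 without BM 2, 7 without BM 3, 4 without BMT 1, 8 without BMT 2 and 23 without BMT 3. Rrm2, a subunit of the enzyme that makes deoxyribonucleotides, was at 146, 127 and 75.5 CPM in BMT libraries, against 54.7, 44.5 and 49.7 CPM in BM libraries (log2 fold change 1.23, SE 0.22, adjusted p = 0.0027). Ccnb1, the cyclin of mitotic entry, was at 140.3, 108 and 65.4 CPM in BMT libraries, against 57.95, 43.7 and 44.6 CPM in BM libraries (log2 fold change 1.10, SE 0.25, adjusted p = 0.0086). Both calls were kept in every leave-one-out fit. Mki67, the proliferation marker, was at 259, 131 and 212 CPM in BMT libraries, against 97.4, 124 and 146 CPM in BM libraries, with overlapping groups, and missed the threshold (log2 fold change 0.71, SE 0.24, adjusted p = 0.053), which it passed with DESeq2 (adjusted p = 0.022) and without BMT 2 (0.014). Activated T cells divide too, and whether the rise lies in epithelial or in T cells was not tested.

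Genes that mark regenerating or fetal-like epithelium did not move as a block. Of 19 tested genes 7 rose and 2 fell, with a median log2 fold change of 0.57, and without BMT 3 the number that rose was 11. Ly6a, the surface protein Sca-1 of regenerating epithelium and of activated T cells, was at 449, 658 and 278 CPM in BMT libraries, against 5.9952, 12.7 and 16.04 CPM in BM libraries (log2 fold change 5.32, SE 0.41, adjusted p = 1.2e-05). Ly6c1, Ly6d and Ly6e of the same family rose as well, and Ly6 genes resemble one another and respond to interferon. Areg, an epidermal growth factor receptor ligand, was at 61.97, 50.4 and 34.9 CPM in BMT libraries, against 19.8, 22.4 and 20.8 CPM in BM libraries (log2 fold change 1.22, SE 0.21, adjusted p = 0.0018). The 2 genes that fell were Ccn1 and Hbegf. Ccn1, a target of the Yap pathway, was at 29.2, 27.4 and 21.9 CPM in BMT libraries, against 133, 121 and 116 CPM in BM libraries (log2 fold change -2.23, SE 0.16, adjusted p = 9.7e-06), and Hbegf, another ligand of the receptor, was at 143, 128 and 162 CPM in BMT libraries, against 308, 337 and 348 CPM in BM libraries (log2 fold change -1.20, SE 0.15, adjusted p = 0.00026). Clu, a marker of revival stem cells, was at 3.01, 2.86 and 3.56 CPM in BMT and 3.67, 3.97 and 4.55 CPM in BM and was not called (log2 fold change -0.37, adjusted p = 0.31). The list thus held genes that moved in opposite directions.

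Absorptive enterocyte genes rose more often than they fell. Of the small intestinal identity list 11 of 24 rose and 4 fell, with a median log2 fold change of 0.78, although the number that rose was 6 without BM 2 and 7 without BM 3. That list also holds Paneth cell genes, and Lyz1 and Defa17 were among its falls. Krt20, a keratin of mature villus and surface cells, was at 2323, 1693 and 2547 CPM in BMT libraries, against 1162, 886 and 1074 CPM in BM libraries, and the groups were apart (log2 fold change 1.07, SE 0.20, adjusted p = 0.0031). Ace, a peptidase of the brush border, was at 352, 418 and 722 CPM in BMT libraries, against 136, 185 and 231 CPM in BM libraries (log2 fold change 1.44, SE 0.27, adjusted p = 0.0036). Sis had overlapping groups because BMT 2 lay within the BM range (log2 fold change 1.12, SE 0.35, adjusted p = 0.038), and its call was lost without BM 1 (adjusted p = 0.14), BM 2 (0.073), BMT 1 (0.12) or BMT 3 (0.10), with limma-voom (0.054) and among genes with a mean of at least 5 CPM (0.056). Of 19 brush border genes tested, 6 rose, a count that was 3 without any 1 BM library.

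Genes of fat absorption rose in many cases, with 11 of 22 tested genes higher and 3 lower and a median log2 fold change of 0.81. Apoa4, a lipoprotein of chylomicrons, was at 657, 514 and 871 CPM in BMT libraries, against 116, 35.8 and 119 CPM in BM libraries. The groups were far apart, and BM 2 was the lowest library (log2 fold change 2.91, SE 0.39, adjusted p = 0.00041). Mttp, which loads fat onto these particles, was at 1192, 1076 and 1224 CPM in BMT libraries, against 447, 450.1 and 536 CPM in BM libraries (log2 fold change 1.28, SE 0.16, adjusted p = 0.00023). Apob, their structural protein, was at 1103, 719 and 1876 CPM in BMT libraries, against 359, 425 and 522 CPM in BM libraries (log2 fold change 1.502, SE 0.30, adjusted p = 0.0047), and Acsl5, which activates fatty acids, was at 1196, 983 and 1308 CPM in BMT libraries, against 377, 330.3 and 453 CPM in BM libraries (log2 fold change 1.59, SE 0.18, adjusted p = 0.00014). In each of these 4 genes the groups did not overlap. The sterol exporters fell, with Abcg5 at 57.5, 51.2 and 92.8 CPM in BMT and 150.3, 137 and 129 CPM in BM (log2 fold change -1.04, SE 0.21, adjusted p = 0.0051) and Abca1 at 0.211, 0.256 and 1.09 CPM in BMT and 2.04, 2.10 and 2.97 CPM in BM (log2 fold change -2.16, SE 0.52, adjusted p = 0.013), and without BMT 2 the call of Abca1 was lost (adjusted p = 0.056) and the lower count was 1. Among nutrient transporters 6 of 22 rose and 3 fell. Slc6a19, the neutral amino acid transporter, was at 1156, 1216 and 1587 CPM in BMT libraries, against 563, 486 and 612 CPM in BM libraries (log2 fold change 1.25, SE 0.18, adjusted p = 0.00066). Slc7a8, a basolateral amino acid transporter, fell with 5.33, 1.79 and 11.04 CPM in BMT and 24.4, 28.6 and 63.3 CPM in BM (log2 fold change -2.68, SE 0.54, adjusted p = 0.0047).

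The title of the series names bile acid metabolism, so the ileal bile acid genes are given in the order of their path, from uptake to the signal sent to the liver. Slc10a2, which takes bile acids up from the lumen, was at 881, 544 and 1173 CPM in BMT libraries, against 341, 443 and 323 CPM in BM libraries. The lowest BMT library was above the highest BM library (log2 fold change 1.23, SE 0.26, adjusted p = 0.0056). Fabp6, which binds them in the cell, went the other way with the CPM given in the opening (log2 fold change -1.48, SE 0.38, adjusted p = 0.017), and its call was lost without BM 1 (adjusted p = 0.067). The exporter of the basolateral side showed no call for either chain. Slc51a was at 744, 710.1 and 1123 CPM in BMT libraries, against 1100.4, 1006 and 994 CPM in BM libraries (log2 fold change -0.27, adjusted p = 0.36), and Slc51b was at 409, 342 and 470.3 CPM in BMT libraries, against 369.8, 274 and 257 CPM in BM libraries (log2 fold change 0.44, adjusted p = 0.12). Nr1h4, the bile acid receptor FXR, was level at 215, 238 and 229 CPM in BMT and 189, 231 and 155 CPM in BM (log2 fold change 0.25, adjusted p = 0.32). Its target Fgf15, the hormone that signals to the liver, was at 18.7, 2.05 and 38.1 CPM in BMT libraries, against 31.2, 65.9 and 109 CPM in BM libraries, and the groups overlapped because BM 1 lay below BMT 3 (log2 fold change -1.81, SE 0.72, adjusted p = 0.094). Fgf15 passed the threshold with limma-voom (adjusted p = 0.048) and without BMT 3 (0.027), as Slc51a did without BMT 3 (0.032). Of 18 tested genes of the axis 1 rose and 2 fell, with none lower without BM 1, 1 lower without BM 2 and 5 lower without BMT 3. Neither fall was kept in every leave-one-out fit.

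**Figure D3:**
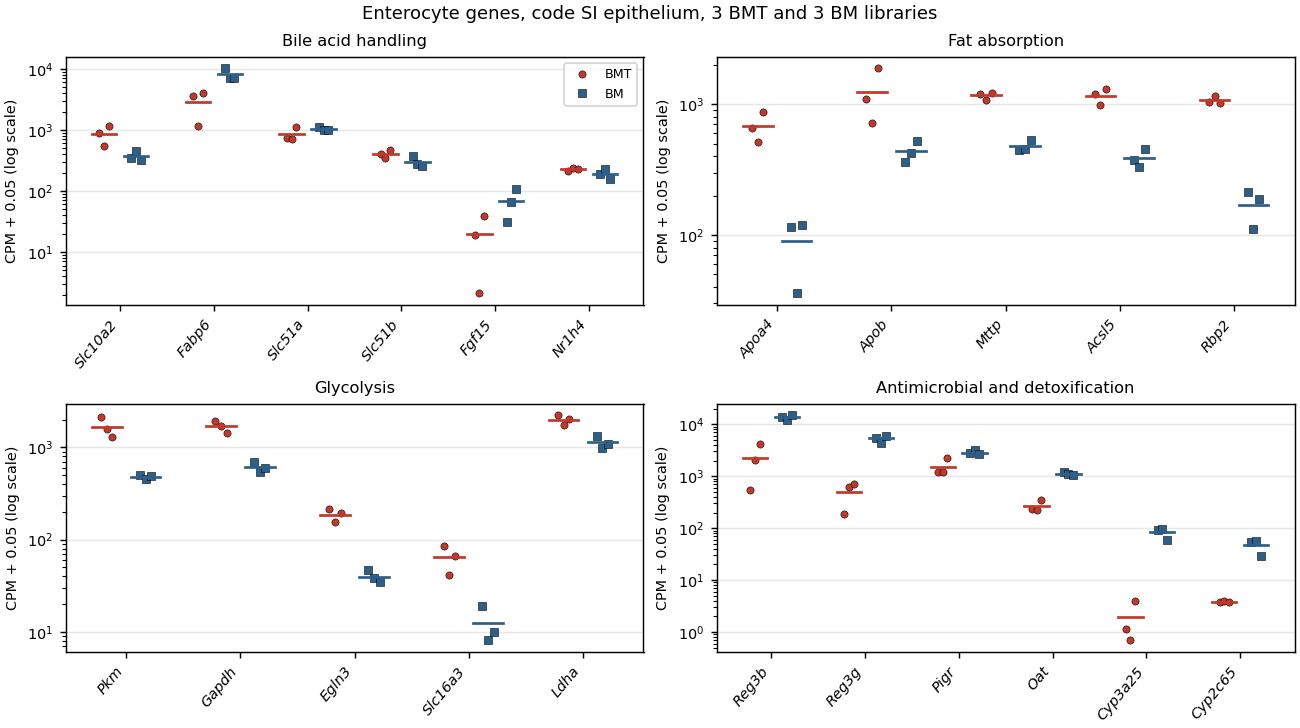
Level of enterocyte genes in each library (CPM + 0.05 on a log axis), with BMT libraries left of BM libraries and a line at the mean of each group. Apoa4 and Slc10a2 lie higher in the BMT libraries, Cyp3a25 and Reg3g lie lower, and Fgf15 overlaps between the groups.

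Genes of detoxification fell more often than they rose. Of 30 tested genes of xenobiotic metabolism 13 fell and 3 rose, with a median log2 fold change of -0.66, and 1 rose without BM 2 or without BM 3. Cyp3a25, a cytochrome P450 that oxidises drugs and steroids, fell to 1.11, 0.641 and 3.83 CPM in the BMT libraries, against 92.5, 95.6 and 59.6 CPM in the BM libraries (log2 fold change -5.46, SE 0.50, adjusted p = 3.1e-05). Cyp2c65 was at 3.69, 3.93 and 3.74 CPM in BMT libraries, against 54.6, 56.02 and 29.6 CPM in BM libraries (log2 fold change -3.62, SE 0.26, adjusted p = 9.5e-06), and Cyp2c55 was at 2.16, 0.513 and 2.28 CPM in BMT libraries, against 93.6, 52.7 and 11.98 CPM in BM libraries, with BM 3 the lowest of its group (log2 fold change -5.01, SE 0.71, adjusted p = 0.00056). Cyp2c66 had 1 count in the BMT libraries together, and the ratio of BM over BMT counts was 261 (95% interval 46.4 to 10333). In these 4 cytochrome genes every BMT library was below every BM library. Ces2a, a carboxylesterase, was at 39.3, 41.7 and 84.6 CPM in BMT libraries, against 471, 305 and 298 CPM in BM libraries (log2 fold change -2.697, SE 0.31, adjusted p = 0.00012). Gsta1, a glutathione transferase, was an exception that rose, with 8.44, 3.89 and 2.92 CPM in BMT libraries, against 0.883, 0.524 and 0.495 CPM in BM libraries (log2 fold change 2.98, SE 0.46, adjusted p = 0.00090). The Cyp2c and Ces families hold close copies whose reads can be shared.

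Of 26 tested antimicrobial and barrier genes 9 fell and 4 rose. Reg3b (chr6:78370657-78373466) and Reg3g, lectins that kill bacteria and that interleukin 22 induces, were among the falls. Reg3b was at 547, 2026 and 4150.4 CPM in BMT libraries, against 13946, 12205 and 14829 CPM in BM libraries, with BMT 1 the lowest library and the groups apart (log2 fold change -2.61, SE 0.54, adjusted p = 0.0054). Reg3g was at 184, 613 and 720.3 CPM in BMT libraries, against 5479, 4447 and 6044 CPM in BM libraries (log2 fold change -3.40, SE 0.42, adjusted p = 0.00023). Nos2, which makes nitric oxide, was at 65.6, 54.996 and 53.5 CPM in BMT libraries, against 183, 149 and 159.9 CPM in BM libraries (log2 fold change -1.499, SE 0.15, adjusted p = 6.3e-05). Tifa, an adaptor that senses bacterial sugars, was at 33.9, 35.1 and 36.8 CPM in BMT libraries, against 143, 164 and 121 CPM in BM libraries (log2 fold change -2.02, SE 0.16, adjusted p = 1.4e-05). The falls in these 4 genes were kept when any 1 library was left out. Duoxa2, which matures the epithelial oxidase Duox2, rose with 56.1, 69.3 and 187 CPM in BMT libraries, against 33.1, 20.6 and 35.4 CPM in BM libraries (log2 fold change 1.81, SE 0.40, adjusted p = 0.0077). Tight junction genes gave no call among 15 tested, with a median log2 fold change of -0.13.

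Genes of glycolysis rose. Of 20 tested genes of glycolysis and hypoxia 12 rose and none fell, with a median log2 fold change of 0.78. Pkm, pyruvate kinase, was at 2153, 1579 and 1302 CPM in BMT libraries, against 502, 456 and 488 CPM in BM libraries (log2 fold change 1.80, SE 0.20, adjusted p = 0.00012). Gapdh was at 1922, 1718 and 1433 CPM in BMT libraries, against 693, 540.1 and 604 CPM in BM libraries (log2 fold change 1.47, SE 0.18, adjusted p = 0.00022), and Slc16a3, which exports lactate, was at 86.1, 41.6 and 67.02 CPM in BMT libraries, against 19.01, 8.03 and 9.90 CPM in BM libraries (log2 fold change 2.40, SE 0.34, adjusted p = 0.00055). Each of these 3 genes was higher in every BMT library than in any BM library. Egln3, an oxygen sensor induced in hypoxia, was at 213, 154 and 192 CPM in BMT libraries, against 46.2, 37.9 and 34.9 CPM in BM libraries (log2 fold change 2.23, SE 0.18, adjusted p = 1.5e-05). Proliferating T cells use glycolysis as well, and the part of the T cells was not tested. Transcripts of the mitochondrial chromosome took 5.61, 4.83 and 6.01% of counts in the BMT libraries and 8.63, 8.38 and 7.30% in the BM libraries. The difference of means, -2.62 percentage points, gave p = 0.1 in a two-sided exact permutation test, the smallest p that 3 against 3 libraries allow.

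Genes of tryptophan, arginine and citrulline metabolism moved in both directions, with 4 of 15 tested genes higher and 5 lower. Without BM 2, BM 3 or BMT 1 the lower count was 2, and without BMT 2 it was 3. Oat, which makes a citrulline precursor from ornithine, fell to 229, 224 and 355 CPM in the BMT libraries, against 1221, 1092 and 1053 CPM in the BM libraries (log2 fold change -2.06, SE 0.21, adjusted p = 5.5e-05). Otc, which makes citrulline, was at 58.4, 66.7 and 130.2 CPM in BMT libraries, against 167, 158 and 154 CPM in BM libraries (log2 fold change -0.91, SE 0.26, adjusted p = 0.027), and Cps1, which supplies it with carbamoyl phosphate, was at 512, 633 and 806 CPM in BMT libraries, against 1018, 1095 and 1071 CPM in BM libraries (log2 fold change -0.71, SE 0.19, adjusted p = 0.019). Calls for Otc and Cps1 were lost without BM 2, BM 3, BMT 1 or BMT 2, and that of Otc also without BM 1, with adjusted p-values of up to 0.11, and that of Cps1 in the fit of all 18 libraries (adjusted p = 0.18). Ass1, which turns citrulline into an arginine precursor, rose with 40.3, 26.3 and 17.9 CPM in BMT libraries, against 14.3, 11.3 and 11.6 CPM in BM libraries (log2 fold change 1.18, SE 0.27, adjusted p = 0.0090).

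Genes of regulated cell death rose more often than they fell, and those of the p53 response gave few calls. Among 36 tested genes of cell death 12 rose and 2 fell, with a median log2 fold change of 0.22, and 6 rose without BM 2 or without BM 3. The genes of necroptosis were among those that kept their call in every leave-one-out fit. Mlkl, its membrane-breaking effector, was at 75.7, 63.1 and 46.3 CPM in BMT libraries, against 21.01, 20.2 and 21.04 CPM in BM libraries (log2 fold change 1.57, SE 0.19, adjusted p = 0.00021). Ripk3, the kinase that activates Mlkl, was at 169, 197 and 124 CPM in BMT libraries, against 81.1, 69.9 and 76.97 CPM in BM libraries (log2 fold change 1.10, SE 0.18, adjusted p = 0.0014). In both genes the groups did not overlap. Genes induced by p53 did not move as a list, with 1 higher and 2 lower of 22 tested and a median of 0.05. Cdkn1a, the cell cycle inhibitor p21, was at 333, 346 and 442 CPM in BMT libraries, against 265, 227 and 258 CPM in BM libraries (log2 fold change 0.58, SE 0.16, adjusted p = 0.025), a call lost without BM 1 (adjusted p = 0.052), BM 2 (0.13) or BM 3 (0.071) and in the fit of all 18 libraries (0.11). Atf3, an early stress transcription factor, fell with 273, 279.7 and 322 CPM in BMT libraries, against 636, 631 and 598 CPM in BM libraries (log2 fold change -1.09, SE 0.15, adjusted p = 0.00042), a call lost in the fit of all 18 libraries (adjusted p = 0.11).

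**Figure D4:**
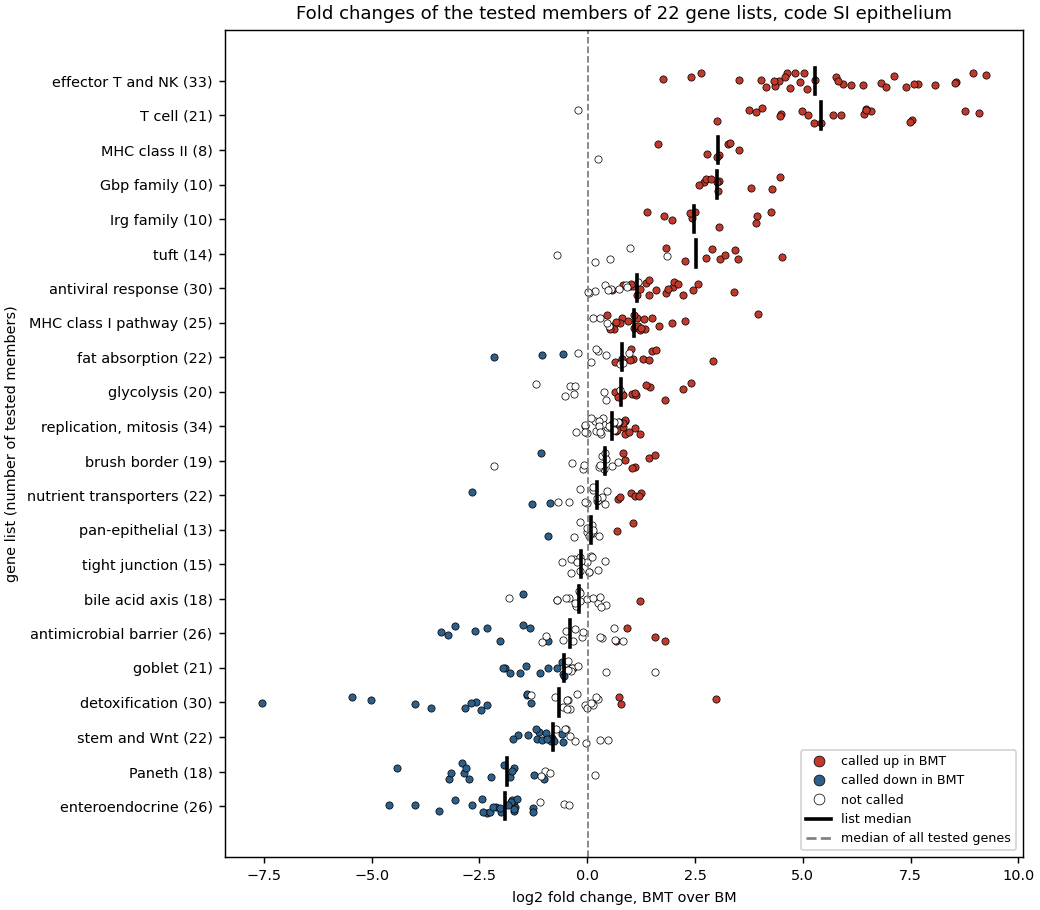
Log2 fold change (BMT over BM) of each tested gene in 22 gene lists, with a black line at the median of each list, a dashed line at the median of all tested genes, and filled points for genes that passed the test. The medians of the T cell, effector, guanylate-binding protein and class II lists lie right of 0, and those of the Paneth, stem cell and enteroendocrine lists lie left of it.

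Apart from the genes given above, the largest rises among genes that averaged 5 CPM or more and had groups apart were again genes of lymphocytes. Ms4a4b, a membrane protein of T cells, was at 15.5, 13.1 and 15.5 CPM in BMT libraries, against 0.0929, 0.0437 and 0.0495 CPM in BM libraries (log2 fold change 7.76, SE 0.36, adjusted p = 1.5e-06). Ms4a6b of the same family was at 11.3, 15.9 and 12.9 CPM in BMT libraries, against 0.418, 0.0873 and 0.0495 CPM in BM libraries (log2 fold change 6.13, SE 0.47, adjusted p = 1.2e-05). Klrc1, a receptor of NK cells and T cells, was at 9.07, 9.06 and 13.2 CPM in BMT libraries, against 0, 0.0437 and 0.0495 CPM in BM libraries, a ratio of 339 (95% interval 93.4 to 2803). All 3 genes were at or near 0 in the BM libraries. The filter kept them through the BMT libraries, so they could only rise, and their values are a description. Among the largest falls were genes of metabolism. Hao2, a peroxisomal hydroxy acid oxidase, was at 0.369, 0.342 and 1.19 CPM in BMT libraries, against 23.6, 15.9 and 10.4 CPM in BM libraries (log2 fold change -4.70, SE 0.47, adjusted p = 5.4e-05). Plb1, a brush border phospholipase, was at 10.9, 0.769 and 4.88 CPM in BMT libraries, against 127, 37.6 and 178 CPM in BM libraries (log2 fold change -4.40, SE 0.75, adjusted p = 0.0017), and Sult1a1, a sulfotransferase, was at 0.211, 0.513 and 2.19 CPM in BMT libraries, against 22.3, 19.1 and 5.59 CPM in BM libraries (log2 fold change -3.99, SE 0.68, adjusted p = 0.0018). In Plb1 the libraries of each group were widely spread. Groups that did not overlap were a condition for choosing the largest rises and falls.

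Of the large intestinal list, 3 of 6 tested genes fell, and its summed level was 241, 319 and 489 CPM in the BMT libraries and 974, 792 and 427 CPM in the BM libraries. Car1, a carbonic anhydrase of the colon and caecum, made up a large share of the spread, with 29.2, 55.6 and 102 CPM in BMT libraries, against 571, 303 and 12.8 CPM in BM libraries. BM 1 and BM 2 were high and BM 3 was the lowest of all 6 libraries (log2 fold change -2.25, SE 0.89, adjusted p = 0.093), and the call was made without BM 3 (0.0010). The BM libraries thus differed among themselves in colonic transcripts, and the part of this in other results was not tested.

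The effect of added T cells was also compared with that in the code LI epithelium in 1 edgeR model over 12 libraries, paired by the mouse number in the library descriptions. Of 15815 genes tested, the BMT effect was higher in code SI than in code LI for 494 (3.12%) and lower for 601 (3.8%). Class II genes had medians of 3.04 in code SI and 3.05 in code LI with no difference called among 8. Guanylate-binding proteins had medians of 3.02 in code SI and 2.35 in code LI, with 1 difference called higher in code SI among 10. Immunity-related GTPases had medians of 2.47 in code SI and 1.68 in code LI, with 2 of 10 differences called higher in code SI. Antiviral effectors had medians of 1.17 in code SI and 1.72 in code LI, and 6 of 30 differences were called lower in code SI. The class I list had medians of 1.08 in code SI and 1.43 in code LI, with 2 of 25 called lower in code SI. For H2-Aa the difference was -0.40 (SE 0.23, adjusted p = 0.34).

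Tuft cell genes had a median of 2.51 in code SI and 0.66 in code LI, and 5 of 14 differences were called, all higher in code SI. Trpm5 rose in code SI but stood at 0.176, 0.391 and 0.407 CPM in the BMT and 0.800, 0.545 and 0.625 CPM in the BM libraries of code LI. The difference of its log2 fold changes was 4.55 (SE 0.50, adjusted p = 0.00029). Enteroendocrine genes had a median of -1.91 in code SI and -0.77 in code LI, with 10 of 26 differences called lower in code SI. In the Paneth list 5 of 18 differences were called and in the goblet list 3 of 21, all lower in code SI. Chga, lower in BMT in code SI, was at 62.02, 100.1 and 82.7 CPM in the BMT and 58.4, 61.2 and 49.3 CPM in the BM libraries of code LI, a difference of -2.33 (SE 0.29, adjusted p = 0.00071). Muc2 likewise fell in code SI and was at 436, 219 and 489 CPM in BMT and 559, 374 and 283 CPM in BM in code LI, a difference of -1.499 (SE 0.39, adjusted p = 0.040). Pla2g2a and Nos2 fell in code SI and were higher in BMT in code LI, where Pla2g2a had 892, 1094 and 1127 CPM in BMT and 422, 387 and 327 CPM in BM, and Nos2 had 66.02, 138 and 176 CPM in BMT and 29.3, 16.3 and 16.9 CPM in BM. The differences were -3.25 for Pla2g2a (SE 0.23, adjusted p = 3.2e-05) and -4.07 for Nos2 (SE 0.37, adjusted p = 0.00011).

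Stem cell genes gave a further set of differences, although Lgr5 itself was not among them. Lgr5 had log2 fold changes of -1.59 in code SI and -2.75 in code LI, and the difference did not pass the test (1.20, SE 0.38, adjusted p = 0.084). Over the list 8 of 22 differences were called, all lower in code SI. Sis and the bile acid exporter genes gave differences of 2.29 for Sis (adjusted p = 0.0028), -1.05 for Slc51a (adjusted p = 0.013) and -1.33 for Slc51b (adjusted p = 0.0040). In code LI Sis was at or below 3.40 CPM, so its fold change there rests on few counts. In the same epithelium Slc51b was at 113, 101 and 118 CPM in BMT and 30.1, 33.9 and 33.9 CPM in BM.

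**Figure D5:**
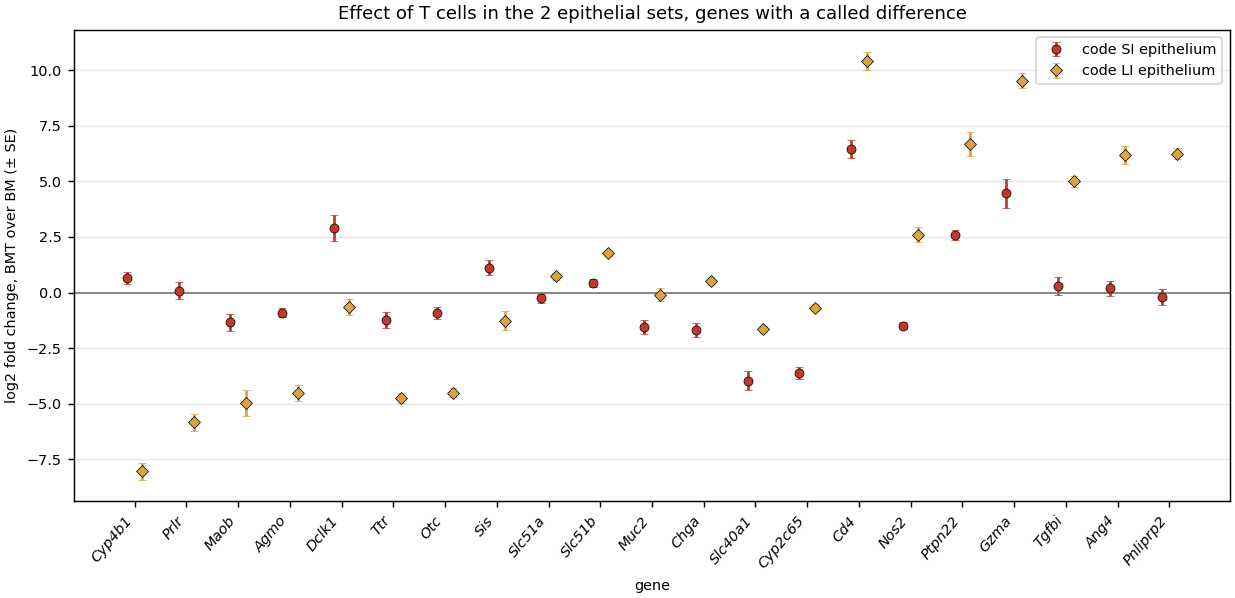
Log2 fold change (BMT over BM, with SE bars) of 21 genes with a called difference, with the code SI epithelium (circles) left of the code LI epithelium (diamonds) for each gene. Dclk1 and Cyp4b1 are higher in code SI than in code LI, and Nos2, Ang4 and Pnliprp2 are lower.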

How the data were processed

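RNA from epithelial fractions was polyA-selected and sequenced with a stranded kit as paired-end reads of 100 bases (labels' protocols). What the authors deposited are raw counts, whole numbers of reads for each gene. The submitters' processing notes name the build GRCm38.p5 and the tools featureCounts 1.6.3, STAR 2.7.0e and FastQC 0.11.9. No source used here gives the annotation release or the strand setting. Reads of BALB/cJ mice were thus counted on a C57BL/6J reference, and near-identical gene copies can share or lose reads. Gene names came from GENCODE M21, which named 53274 of 53379 IDs, and unnamed IDs held 0.00257% of counts. Library totals were 18845483 to 23335458, and a count of 3 in a library stands for 0.129 to 0.159 CPM on these unscaled totals.

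Genes were filtered with filterByExpr, scaled with TMM and tested with edgeR 4.0.16 (quasi-likelihood test, 3 BMT against 3 BM libraries, Benjamini-Hochberg adjustment over 14621 genes, threshold 0.05) in R 4.3.3. The standard error is the absolute log2 fold change divided by the square root of F. The step was tested on simulated data with 14621 genes. It recovered 9 of 67 genes changed 1.5-fold (13.4%), 33 of 67 changed 2-fold (49.3%) and 60 of 66 changed 4-fold (90.9%). It also called 9 genes that had not been changed. Far fewer genes were changed in the simulation than were called in the data, so these shares need not hold for the data. The difference between epithelia was a term of a model over 12 libraries with mouse as a block. Where a group held 1 to 3 counts, a ratio of scaled counts with an exact 95% binomial interval replaces the fold change, which covers counting error only. Where a group held 0 counts, a lower bound against a floor of 3 counts is given. Alternatives were RLE and upper-quartile scaling, DESeq2 1.42.0, limma 3.58.1 (voom), no filter, a mean of at least 5 CPM, each library left out, a replicate block, all 18 libraries, and mitochondrial genes left out. Promoter windows were searched on both strands, and the response element core is given by name only.

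The members and gene lists were chosen with earlier results of these data known. Named genes were the 12 largest rises and 12 largest falls that averaged 5 CPM or more and had groups apart, the called members with the smallest p and the members with the highest CPM of each list, and a set of marker genes. Other list members named were chosen after their values were seen. Some genes are not reported here.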

Additional observations from a re-analysis of the deposited data

Results flagged for a closer look

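The values here are genes whose change with added T cells differed between the code SI and the code LI epithelium in the edgeR model over 12 libraries, given as the log2 fold change in code SI minus that in code LI. They were named by the size of that difference or by the gene, and Pla2g2a and Trpm5 were added after their values were seen.

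Higher changes in code SI included several enzymes and receptors. Cyp4b1, a cytochrome P450, was at 37.6, 22.99 and 44.1 CPM in BMT and 27.3, 15.2 and 23.2 CPM in BM in code SI and at 0.176, 0.0868 and 0 CPM in BMT and 28.3, 22.9 and 25.5 CPM in BM in code LI. Its difference was 8.70 (adjusted p = 3.3e-06). Prlr, the prolactin receptor, was at 46.6, 29.95 and 108 CPM in BMT and 41.8, 66.3 and 66.4 CPM in BM in code SI and at 0.352, 0.0868 and 0.661 CPM in BMT and 21.5, 17.3 and 23.1 CPM in BM in code LI. Its difference was 5.90 (adjusted p = 1.4e-05), although Prlr was not called in code SI. The monoamine oxidase Maob had a difference of 3.86 (adjusted p = 0.00026), the ether lipid enzyme Agmo one of 3.60 (adjusted p = 0.00019) and the thyroid hormone carrier Ttr one of 3.54 (adjusted p = 0.00067). Maob and Ttr were themselves called lower in BMT in code SI. Both calls were lost without BM 1, where the log2 fold change was -1.44 for Maob (adjusted p = 0.053) and -0.89 for Ttr (adjusted p = 0.15). They were also lost without BMT 1 or BMT 2. Clic6, a chloride channel protein, fell in both sets, with log2 fold changes of -3.44 in code SI and -5.88 in code LI and a difference of 2.42 (adjusted p = 0.0015). Otc, lower in BMT in code SI, had a difference of 3.50 (adjusted p = 5.0e-05) and a log2 fold change of -4.51 in code LI. Among genes given in the report, the difference was 3.59 for Dclk1 (adjusted p = 0.0033), 4.55 for Trpm5 and 2.29 for Sis.

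Lower changes in code SI included genes that rose in code LI. Pnliprp2, a pancreatic lipase relative, was at 91.4, 166 and 267 CPM in BMT and 264, 209 and 130.04 CPM in BM in code SI and at 61.97, 60.3 and 65.3 CPM in BMT and 0.650, 0.545 and 1.21 CPM in BM in code LI, a difference of -6.52 (adjusted p = 3.7e-05). Ang4 had 558, 567 and 781 CPM in BMT and 5.40, 5.45 and 15.1 CPM in BM in code LI, a difference of -6.18 (adjusted p = 0.00011). Tgfbi, a matrix protein, was at 70.6, 139 and 291 CPM in BMT and 134, 164 and 109.5 CPM in BM in code SI, and its difference was -4.97 (adjusted p = 0.00013). Of the T cell list 4 of 21 differences were called, and of the effector list 7 of 33, all lower in code SI. Gzma was at 311, 215 and 215 CPM in BMT and 0.550, 0.318 and 0.156 CPM in BM in code LI, and Cd4 was at 56.9, 45.96 and 42.9 CPM in BMT and 0.10003, 0 and 0 CPM in BM, so that fold changes there rest on few counts in BM. Gzma differed by -4.97 (adjusted p = 0.00078), the phosphatase Ptpn22 by -4.12 (adjusted p = 0.0029) and Cd4 by -3.91 (adjusted p = 0.041). Slc40a1, the iron exporter ferroportin, differed by -2.47 (adjusted p = 0.0040) and Cyp2c65 by -2.88 (adjusted p = 0.00018). As given in the report, the difference was -4.07 for Nos2, -3.25 for Pla2g2a, -2.33 for Chga, -1.499 for Muc2, -1.05 for Slc51a and -1.33 for Slc51b. Why the sets differ was not tested.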

How the results depend on the processing

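Among 10283 genes with a mean of at least 5 CPM, 936 were higher and 1022 lower. With 1 library left out, the higher genes ran from 1030 to 1913 and the lower genes from 1056 to 1862, with the lowest counts without BM 2. Other settings gave 1434 higher genes (upper-quartile scaling) to 2158 (all 18 libraries) and 1512 lower genes (lane L002 only, which leaves out BMT 2) to 2190 (no low-count filter). Upper-quartile scaling moved the balance, with 1434 higher and 1988 lower genes. Without the mouse term the difference between epithelia gave 475 higher and 541 lower genes. Replicate numbers did not pair the libraries, since deviations of same-numbered libraries correlated at -0.07, -0.07 and 0.08, and a replicate block gave 1500 higher and 1528 lower genes.

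Of 157 called genes named in the text, 140 kept their call in each of the 16 settings that tested them and 17 lost it in at least 1, and none reversed. Of the 140, 27 were not tested among genes with a mean of at least 5 CPM. Genes without a call changed sign when a library was left out, with log2 fold changes from -0.23 to 0.58 for Ang4 (-0.05 without BM 3), from -0.64 to 0.11 for Pnliprp2 (0.04 without BM 1), from -0.60 to 0.41 for Prlr (-0.11 without BM 1) and from -0.37 to 0.67 for Tgfbi. Prlr was also at -0.10 with limma-voom and at -0.085 with a replicate block. The cause was not tested. Genes with few counts, such as Igha or Cybrd1, are limited by depth, and a gene at 0 counts in a library is known only to lie below the level of 3 counts.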

Other observations

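Iron and zinc handling changed in both directions, with 3 of 14 tested genes higher and 3 lower. Slc40a1, which exports iron to the blood, fell to 1.11, 2.14 and 5.29 CPM in the BMT libraries, against 37.9, 51.4 and 44.997 CPM in the BM libraries (log2 fold change -3.96, SE 0.42, adjusted p = 8.2e-05). Cybrd1, which reduces iron for uptake, was at 0.264, 0.940 and 1.37 CPM in BMT libraries, against 3.81, 4.63 and 4.36 CPM in BM libraries (log2 fold change -2.29, SE 0.43, adjusted p = 0.0032). In both genes the groups were apart. Slc39a4, the zinc importer of the brush border, rose with 421, 713 and 485 CPM in BMT libraries, against 176, 132 and 168 CPM in BM libraries (log2 fold change 1.77, SE 0.21, adjusted p = 0.00020), and Hmox1, which breaks down heme, rose with 5.75, 4.79 and 3.15 CPM in BMT libraries, against 1.30, 1.70 and 1.29 CPM in BM libraries (log2 fold change 1.66, SE 0.31, adjusted p = 0.0032). Rbp2, which binds retinol in enterocytes, was at 1029, 1148 and 1026 CPM in BMT libraries, against 212, 112 and 188 CPM in BM libraries (log2 fold change 2.65, SE 0.23, adjusted p = 2.5e-05), while Adh4, an alcohol dehydrogenase that oxidises retinol, was at 0.158, 0.0855 and 0.182 CPM in BMT libraries, against 1.16, 1.22 and 0.990 CPM in BM libraries (log2 fold change -2.95, SE 0.45, adjusted p = 0.00087).

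Complement genes also split, with 3 higher and 3 lower of 10 tested. C3, the central component, was at 80.7, 79.5 and 116 CPM in BMT libraries, against 31.9, 32.5 and 37.1 CPM in BM libraries (log2 fold change 1.44, SE 0.18, adjusted p = 0.00025), and Serping1, an inhibitor of the classical pathway that interferon gamma induces, was at 8.23, 14.4 and 15.1 CPM in BMT libraries, against 1.91, 1.62 and 1.78 CPM in BM libraries (log2 fold change 2.83, SE 0.29, adjusted p = 5.9e-05). Cfi, which inactivates C3b, was at 0.580, 1.20 and 1.46 CPM in BMT libraries, against 3.39, 4.02 and 5.79 CPM in BM libraries (log2 fold change -2.01, SE 0.37, adjusted p = 0.0028). The lower count was 1 without BM 1, BMT 1 or BMT 2. In the response to amino acid shortage Psat1, an enzyme of serine synthesis, was at 117, 145 and 54.1 CPM in BMT libraries, against 29.4, 25.3 and 25.1 CPM in BM libraries (log2 fold change 1.98, SE 0.30, adjusted p = 0.00077). Angptl4, an inhibitor of lipoprotein lipase, was at 137, 128 and 65.01 CPM in BMT libraries, against 22.7, 23.2 and 38.4 CPM in BM libraries (log2 fold change 1.97, SE 0.29, adjusted p = 0.00076). Of 82 tested ribosomal protein genes 0 rose and 1 fell, with a median log2 fold change of -0.20.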
